A study of Caenorhabditis elegans with 12 samples.

Results

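The 10 genes described here are nhr-23, which encodes a nuclear hormone receptor of the ROR family that larvae need in order to molt, and 9 genes whose products act in or around the cuticle during molting: mlt-7, mlt-8, mlt-9, mlt-10, mlt-11, nas-37, noah-1, noah-2 and bli-5. They were taken by symbol from a count table of 20182 Caenorhabditis elegans genes, with earlier results of these data known. All 10 passed the filter on low counts, and their lowest count in any library was 3. Per coding length, mlt-8 had the highest level, and it was also the only member that passed the test between immunoprecipitated and input RNA. No member passed the test in the comparison that asks for RNA enriched with LIN41 in particular. Between the inputs of replicate 1 and those of replicates 2 and 3, 5 members passed, against 31% of all genes, and of these nhr-23 (higher) and mlt-10 (lower) still passed when gene length was entered as an offset.

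RNA that copurified with a FLAG-tagged protein (RIP-seq) was sequenced together with RNA from the same lysates (input). The LIN41 strain carried the mutations lin-41(n2914) and him-5(e1490) and the transgene xeSi197, which expresses the RNA-binding protein LIN41 with a FLAG-GFP tag under the promoter and 3'UTR of lin-41. The control strain carried him-5(e1490) and the transgene xeSi55, which expresses SART-3 with GFP, His and FLAG tags under the dpy-30 promoter and the 3'UTR of xrn-2. The strains thus differ in the endogenous lin-41 allele and in the promoter of the transgene as well as in the tagged protein, and both carry the him-5 mutation, which raises the share of males. The 12 libraries were 3 each of LIN41 IP, LIN41 input, SART-3 IP and SART-3 input, numbered 1 to 3. They came from whole L3/L4 larvae, only partly synchronous, grown for about 30 hours at 25 °C, and 5 parallel IPs were combined for each IP library.

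C. elegans larvae pass through a molt at the end of each larval stage. The epidermis first lays down a new cuticle under the old, the old cuticle is then loosened by proteases and shed, and protease inhibitors and cross-linking enzymes act on the new layer. NHR-23 is a transcription factor at the head of this program, and many molting mRNAs rise and fall once per larval stage. In whole worms, fewer cells expressing a gene and less RNA per cell cannot be told apart.

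Library totals were 291466 to 404046 counts in LIN41 IPs, 859814 to 2024430 in LIN41 inputs, 412440 to 612445 in SART-3 IPs and 1274703 to 1401265 in SART-3 inputs, so that 3 counts correspond to 1.30 to 13.7 CPM (the counts-per-million scale, with TMM normalization factors). The lin-41 mRNA, to which the transgene contributes in the LIN41 strain, reached 2016, 181 and 222 CPM in LIN41 IPs 1, 2 and 3, against 127, 21.2 and 15.4 CPM in LIN41 inputs. Replicate 1 stood apart in every group: its chi-square per degree of freedom against another replicate of its group was 3.61 to 15.1, against 1.62 to 2.22 between replicates 3 and 2. Its inputs had less sperm mRNA within each strain. In the LIN41 strain 16 sperm genes summed to 367 CPM in input 1, against 470 and 773 CPM in inputs 2 and 3. In the SART-3 strain the sums were 174 CPM, against 276 and 545 CPM. None of the 16 was at 0 in all inputs. All 10 markers of epidermis, intestine, muscle and nervous system were detected in every library. Inputs were all run in lane 3 and IPs in lane 4, so lane and library type cannot be told apart. Nothing in the labels says what else the replicate numbers stand for, and molt stage was not recorded.

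mlt-8 stood above the other members in level. Levels between genes were compared per length, as CPM per kilobase of coding length (RPKM) in the 6 inputs, computed from the deposited counts and coding lengths. Annotated exons can be longer: those of mlt-11 cover 9796 bp in WBcel235, against a coding length of 6528 bp. Whether reads outside the coding part were counted is not stated, so the order of members holds for coding length only. mlt-8, required for molting but without a settled biochemical role, averaged 249 ± 44.9 RPKM (SD, n = 6 inputs), and its lowest input, at 193 RPKM, lay above the highest input of every other member. noah-2 came next with 108 ± 15.6 RPKM. It encodes an apical matrix protein with a zona pellucida (ZP) domain, as does noah-1, which averaged 65.4 ± 15.9 RPKM. The 2 other genes known mainly from their RNAi molting defects, mlt-9 and mlt-10, averaged 89.6 ± 10.9 and 78.8 ± 25.96 RPKM. mlt-7, a heme peroxidase that cross-links cuticle, averaged 59.5 ± 16.3 RPKM, and the Kunitz-type protease inhibitor genes mlt-11 and bli-5 averaged 54.6 ± 14.0 and 40.2 ± 12.9 RPKM. The lowest levels were those of nhr-23, at 35.2 ± 10.3 RPKM, and nas-37, an astacin metalloprotease needed to shed the old cuticle, at 34.2 ± 5.53 RPKM. Below mlt-8 the ranges of neighbours in this order overlapped. noah-2 was nevertheless above mlt-9 in 6 of 6 inputs, whereas each later member exceeded the next in only 3 or 4 of 6. The plot of levels by library shows all 12 values of each gene.

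**Figure D1:**
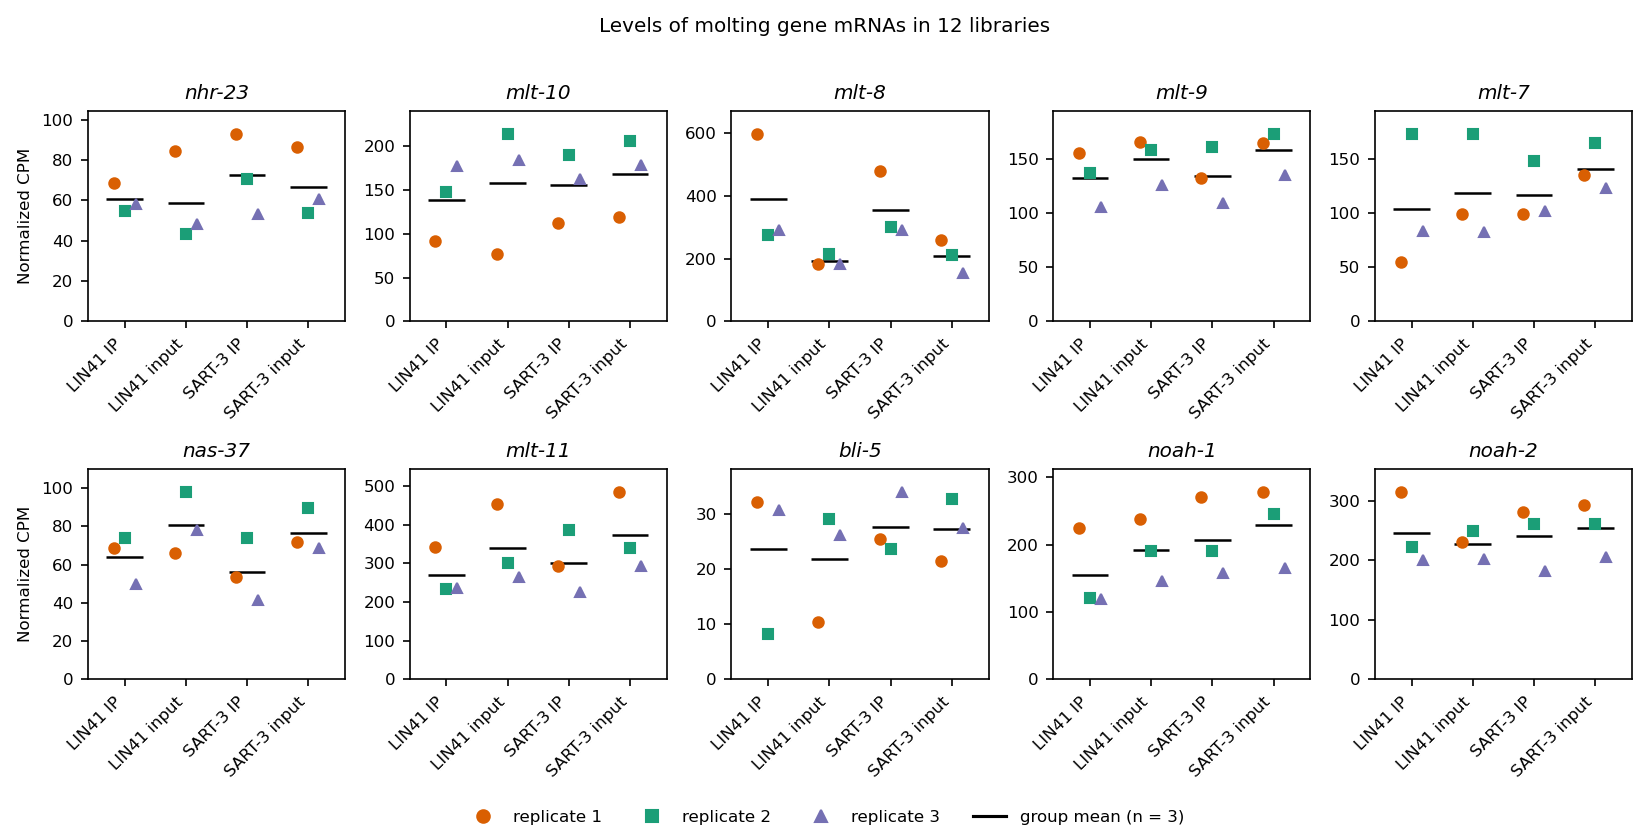
Normalized CPM of the 10 genes in each library (vertical axis, a separate scale for each panel), with LIN41 IP, LIN41 input, SART-3 IP and SART-3 input side by side and points identified by replicate number. Replicate 1 lies above replicates 2 and 3 in all 4 groups for nhr-23 and noah-1, and below them in all 4 groups for mlt-10.

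The first question was whether any of these mRNAs was enriched with LIN41 beyond what the SART-3 control recovered, that is, whether the log2 difference of LIN41 IP minus LIN41 input exceeded that of SART-3 IP minus SART-3 input. None of the 10 passed the test, against 0.0415% of all 12036 genes tested (5 genes). The members' values ranged from -0.18 for noah-1 (SE 0.274) to 0.17 for mlt-8 (SE 0.338), with adjusted p of 1.00 for each (edgeR quasi-likelihood test) and a lowest unadjusted p of 0.523. Their median was 0.07, against -0.03 over all genes, with 6 values above 0 and 4 below. nhr-23 stood at -0.05 (SE 0.3004) and mlt-10 at -0.00076 (SE 0.320). The standard errors, 0.25 to 0.60, set the size of difference that could have been seen, and bli-5, with the largest, had only 7, 3 and 11 counts in LIN41 IPs 1, 2 and 3.

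mlt-8 was higher in IPs than in inputs with both proteins. It had 599, 277 and 292 CPM in LIN41 IPs 1, 2 and 3, against 182, 214 and 182 CPM in LIN41 inputs. The SART-3 IPs held 479, 301 and 291 CPM, against 260, 212 and 156 CPM in SART-3 inputs. IPs and inputs did not overlap for either protein, and the IP exceeded its own input in 6 of 6 lysates. How many of all genes had that separation was not counted. The fitted log2 difference of mlt-8 was 0.93 for LIN41 (SE 0.244, adjusted p = 0.0169) and 0.76 for SART-3 (SE 0.237, adjusted p = 0.0321, edgeR). mlt-8 has a coding length of 807 bp, and IPs of both proteins held relatively more of short mRNAs. Among genes of at most 1000 bp the median log2 difference was 0.23 with LIN41 and 0.31 with SART-3, against -0.50 and -0.47 above 3000 bp. In that class of short genes, 64.8% with LIN41 and 69.2% with SART-3 had fitted differences above 0. With gene length entered as an offset, the mlt-8 difference was 0.89 for LIN41 (adjusted p = 0.0111) and 0.67 for SART-3 (adjusted p = 0.0409).

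The other 9 members did not pass in either comparison of IP and input. The share of members called was thus 1 of 10 in each, against 14.2% of all genes for LIN41 (8.87% higher, 5.33% lower) and 18.3% for SART-3 (10.5% higher, 7.79% lower). For LIN41 the remaining differences ran from -0.35 for nas-37 (SE 0.214) to 0.11 for bli-5 (SE 0.465), and for SART-3 from -0.44 for nas-37 (SE 0.199) to 0.13 for nhr-23. The median over the 10 was -0.14 in both, against -0.07 and -0.03 over all genes. In the fit with length offsets it was 0.24 with LIN41 and 0.29 with SART-3, against 0.06 over all genes in both, and 7 members with LIN41 and 6 with SART-3 changed sign, although mlt-8 was again the only member called. In log2 CPM, mlt-9 and noah-1 were below their input in all 6 lysates, and neither passed the test. How many of all genes had that order was not counted. Fitted differences were above 0 in 37.9% (LIN41) and 39.8% (SART-3) of genes above 1000 and up to 2000 bp, the class of mlt-9. Above 3000 bp, the class of noah-1, the shares were 13.9% and 14.0%. The direction of both members turned with the length offsets, to 0.15 with LIN41 and 0.08 with SART-3 for mlt-9 and to 0.14 and 0.36 for noah-1. In nhr-23 the sign varied, with log2 differences of -0.29, 0.32 and 0.26 for LIN41 replicates 1, 2 and 3 and 0.10, 0.39 and -0.17 for SART-3.

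Scaling, the filter on counts and the set of libraries changed how many members were called between IP and input. With total counts in place of TMM factors, the median of all genes moved by -0.33 with LIN41 and -0.29 with SART-3, and of the genes called 23.6% and 25.6% were higher in the IP, against 62.5% and 57.4% with TMM. Under that scaling noah-1, mlt-9, nas-37 and mlt-11 were lower in LIN41 IPs, at -0.54 to -0.69, and noah-1, mlt-9 and nas-37 in SART-3 IPs, at -0.46 to -0.73. Of all 12036 genes, 2241 were then called lower with LIN41 and 2256 with SART-3, against 641 and 938 with TMM. mlt-8 then had 0.60 with LIN41 (adjusted p = 0.0294) and 0.47 with SART-3 (adjusted p = 0.0632). With TMM and at least 10 counts in every library, nas-37 (-0.57) and noah-1 (-0.58) were lower in LIN41 IPs. In SART-3 IPs mlt-9 (-0.45) and nas-37 (-0.66) were lower under that filter. These fits called 1420 (LIN41, 625 of them lower) and 1607 (SART-3, 743 of them lower) of 5255 genes. Leaving out replicate 1, noah-1 was lower in LIN41 IPs (-0.49), among 1769 of 11940 genes called (671 of them lower).

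The mlt-8 calls also depended on single libraries and on how depth was treated. For LIN41 the call was lost without LIN41 IP 1 (0.68, adjusted p = 0.0785), LIN41 IP 3 (0.97, adjusted p = 0.0618) or all libraries of replicate 3 (1.05, adjusted p = 0.163), and the value was 0.52 without replicate 1 (adjusted p = 0.00901). For SART-3 it was lost without SART-3 IP 1 (adjusted p = 0.156) or 3 (0.125), without SART-3 input 1 (0.0951), 2 (0.0791) or 3 (0.173), and without replicate 2 (0.0656) or 3 (0.368), with differences of 0.68 to 0.89. The SART-3 call was lost too with the correction for the ceiling that collapsed reads set (0.63, adjusted p = 0.0521) and with thinning to equal totals (0.66, adjusted p = 0.0674), both added after the data were seen. A fit without the replicate block gave adjusted p of 0.0920 for LIN41 and 0.175 for SART-3.

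**Figure D2:**
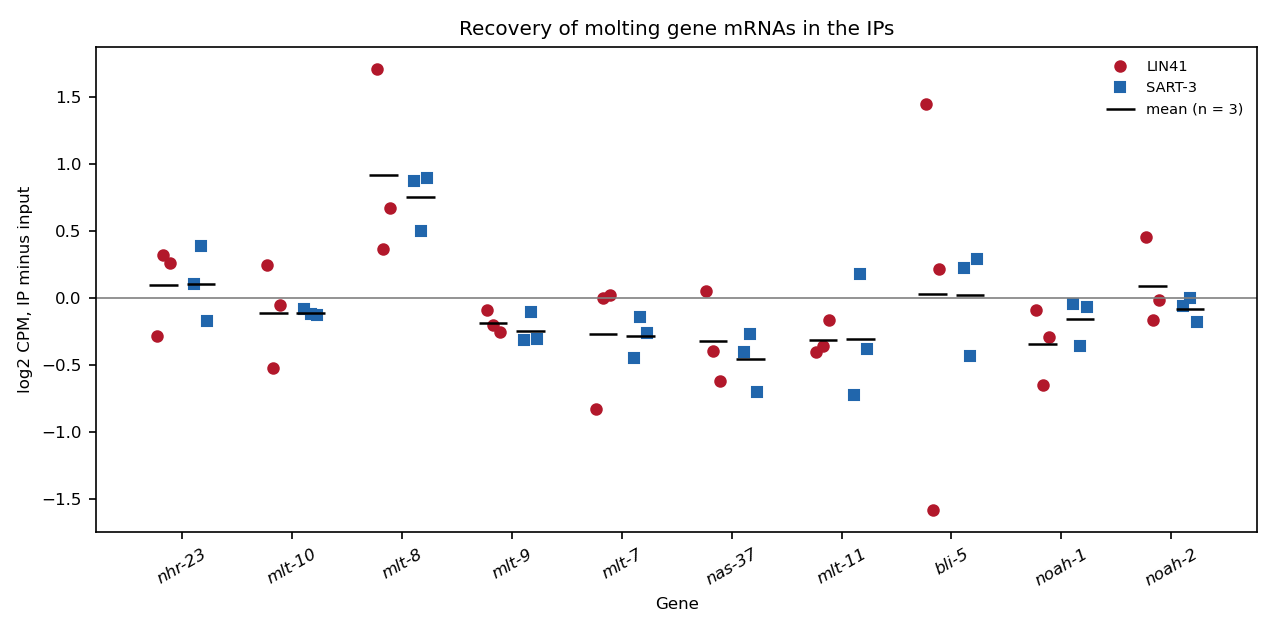
Log2 CPM of the IP minus that of the input from the same lysate, for each gene and replicate (red circles, LIN41; blue squares, SART-3; bars, means of 3). All 6 values of mlt-8 lie above 0, and those of mlt-9 and noah-1 lie below 0 for both proteins, a direction that turns when gene length is entered as an offset.

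The inputs were compared next, since a difference in mRNA abundance between the strains would enter every IP. None of the 10 members passed, against 1.41% of all genes (1.32% higher and 0.0914% lower in LIN41 inputs). The log2 differences of LIN41 input minus SART-3 input ranged from -0.43 for bli-5 to 0.06 for nas-37, and 9 of 10 were below 0, with a median of -0.16 against 0.01 over all genes. The lowest adjusted p was 0.750, for mlt-7 at -0.31. Without replicate 1, noah-1 passed at -0.28 (adjusted p = 0.0460), in a fit that called 2863 of 11940 genes (1019 of them lower). Between the IPs themselves no member passed either, against 0.216% of all genes (0.191% higher, 0.0249% lower), and the values of LIN41 IP minus SART-3 IP ran from -0.44 for noah-1 (SE 0.210, adjusted p = 0.594) to 0.16 for nas-37.

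More members, and a larger share of all genes, were called between replicate 1 and replicates 2 and 3 than by protein or library type. The inputs of replicate 1 were compared with those of replicates 2 and 3 in a fit of the 6 inputs with strain as a covariate, so that each lysate counted once and each number held 1 culture of each strain. In replicate 1, nhr-23, mlt-11 and noah-1 were higher and mlt-10 and bli-5 were lower, which makes 5 of 10 members called, against 31% of 13414 genes (16.2% higher, 14.8% lower). Their median was 0.19, against -0.01 over all genes. The 5 others had values between -0.26 for nas-37 (SE 0.148) and 0.22 for mlt-8 (SE 0.181) and did not pass. The inputs of replicate 1 did not overlap those of replicates 2 and 3 in 4 members (nhr-23 and mlt-11 higher, mlt-10 and bli-5 lower), a separation found in 50.9% of all genes (26.5% higher, 24.4% lower).

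nhr-23 was higher in replicate 1. In inputs it had 84.2 CPM in LIN41 replicate 1, against 43.5 and 48.3 CPM in replicates 2 and 3, and 86.5 CPM in SART-3 replicate 1, against 53.6 and 60.4 CPM. LIN41 IPs 1, 2 and 3 held 68.6, 54.9 and 58.4 CPM, and SART-3 IPs 93.0, 70.7 and 53.4 CPM. Replicate 1 was thus the highest in each of the 4 groups, and its inputs did not overlap the other inputs. The LIN41 IP values rest on only 15, 20 and 21 counts, and each IP shares a lysate with an input. The fitted log2 difference over the inputs was 0.75 (SE 0.161, adjusted p = 0.0131, edgeR). This call was lost without LIN41 input 2 (0.72, adjusted p = 0.0667), with DESeq2 (0.76, adjusted p = 0.113) and when the IPs were fitted in place of the inputs (0.46, adjusted p = 0.299).

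mlt-10, an epidermal gene whose promoter is used to report molting, went the other way. Its inputs of replicate 1 held 76.9 CPM in the LIN41 strain, against 214 and 184 CPM in replicates 2 and 3, and 120 CPM in the SART-3 strain, against 206 and 178 CPM. LIN41 IPs 1, 2 and 3 had 91.5, 148 and 178 CPM, and SART-3 IPs 113, 190 and 163 CPM. Replicate 1 was the lowest in each group, without overlap among the inputs. The fitted log2 difference was -1.004 (SE 0.185, adjusted p = 0.00824, edgeR). It kept its call in 20 of 20 other settings, with values of -1.32 to -0.68. The exons of mlt-10 overlap those of lips-7, a lipase-related gene on the same strand, over 4.66% of their length in the WBcel235 annotation. lips-7 had a log2 difference of -0.32 (SE 0.179, adjusted p = 0.197).

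The Kunitz-type inhibitor genes differed in opposite directions in the inputs, though not in the IPs or with the length offsets. mlt-11 had 454 CPM in LIN41 input 1, against 300.1 and 265 CPM in inputs 2 and 3, and 486 CPM in SART-3 input 1, against 341 and 294 CPM. Its log2 difference was 0.66 (SE 0.179, adjusted p = 0.0266). In the IPs it followed this in the LIN41 strain, with 343 CPM in replicate 1 against 233 and 236 CPM, whereas SART-3 IP 1, with 293 CPM, lay between 385 and 226 CPM. bli-5 had 10.4 CPM in LIN41 input 1, against 29.005 and 26.1 CPM, and 21.4 CPM in SART-3 input 1, against 32.7 and 27.4 CPM (log2 difference -0.90, SE 0.288, adjusted p = 0.0459). Its IPs varied without that order, with 32.01, 8.23 and 30.6 CPM in LIN41 and 25.4, 23.6 and 34.0 CPM in SART-3, and a fit of the IPs gave 0.24 (adjusted p = 0.802). Exons of bli-5 overlap cope-1, on the opposite strand, over 11% of their length, and the sources used here do not say whether strand was used in counting. cope-1 had a difference of -0.31 (SE 0.161, adjusted p = 0.164).

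In a fit of the IPs mlt-11 had 0.23 (adjusted p = 0.502). With the length offsets mlt-11 had -0.02 (adjusted p = 0.972) and bli-5 -0.63 (adjusted p = 0.0851), so neither passed. The calls of both inhibitor genes rested on few libraries. That of mlt-11 was lost without LIN41 input 2 (adjusted p = 0.201) or 3 (0.228) and without SART-3 input 2 (0.158) or 3 (0.208), at differences of 0.65 to 0.69. That of bli-5 was lost without LIN41 input 1 (-0.51, adjusted p = 0.187), LIN41 input 2 (-0.81, adjusted p = 0.156), LIN41 input 3 (-0.78, adjusted p = 0.134) or SART-3 input 2 (-0.99, adjusted p = 0.0826), and with DESeq2 (-0.90, adjusted p = 0.216).

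Of the ZP-domain genes, noah-1 passed the test and noah-2 did not. noah-1 had 238 CPM in LIN41 input 1, against 191 and 147 CPM in inputs 2 and 3, and 279 CPM in SART-3 input 1, against 245 and 165 CPM. LIN41 IPs 1, 2 and 3 had 224, 121 and 119 CPM, and SART-3 IPs 271, 190.2 and 158 CPM. Replicate 1 was the highest within each of the 4 groups, although LIN41 input 1 lay below SART-3 input 2. The fitted difference was 0.50 (SE 0.156, adjusted p = 0.0415), and it was lost without LIN41 input 2 (adjusted p = 0.271) or 3 (0.244) and without SART-3 input 2 (0.153) or 3 (0.270), at 0.46 to 0.55. DESeq2 (adjusted p = 0.162) and thinning to equal totals (adjusted p = 0.0554) did not call it either. noah-2 had 230.1, 250 and 203 CPM in LIN41 inputs 1, 2 and 3 and 293, 261 and 206 CPM in SART-3 inputs, with a difference of 0.20 (SE 0.164, adjusted p = 0.370). The groups overlapped there, while in the IPs noah-2 was highest in replicate 1 with both proteins.

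The peroxidase gene mlt-7 and the protease gene nas-37 did not pass, at -0.16 (SE 0.170) and -0.26 (SE 0.148). Input 1 held 99.3 CPM of mlt-7 in the LIN41 strain, against 173 and 82.0 CPM in inputs 2 and 3, and 135 CPM in the SART-3 strain, against 164 and 123 CPM, so that it lay between the others in both. For nas-37 these values were 66.1 CPM, against 98.2 and 78.2 CPM, in the LIN41 strain and 71.7 CPM, against 89.5 and 68.5 CPM, in the SART-3 strain. mlt-8 had 0.22 (SE 0.181) over the inputs and did not pass, and in the IPs replicate 1 was its highest library with both proteins. It was called higher in edgeR fits of the IPs (0.87, adjusted p = 0.00322) and of all 12 libraries (0.54, adjusted p = 0.0218). The latter counted IP and input of a lysate separately. Some fits left 1 culture for a replicate number, so only their values are given. These were 0.59 in the SART-3 strain alone, 0.49 without LIN41 input 1, -0.04 without SART-3 input 1 and 0.10 without SART-3 input 3. mlt-9 varied little, at 0.18 (SE 0.145), with 166, 158 and 126 CPM in LIN41 inputs 1, 2 and 3 and 166, 174 and 136 CPM in SART-3 inputs. Across all 4 groups, 3 of 10 members had replicate 1 outside both others in the same direction (nhr-23 and noah-1 above, mlt-10 below), against 25% of all genes (11.5% above, 13.5% below).

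**Figure D3:**
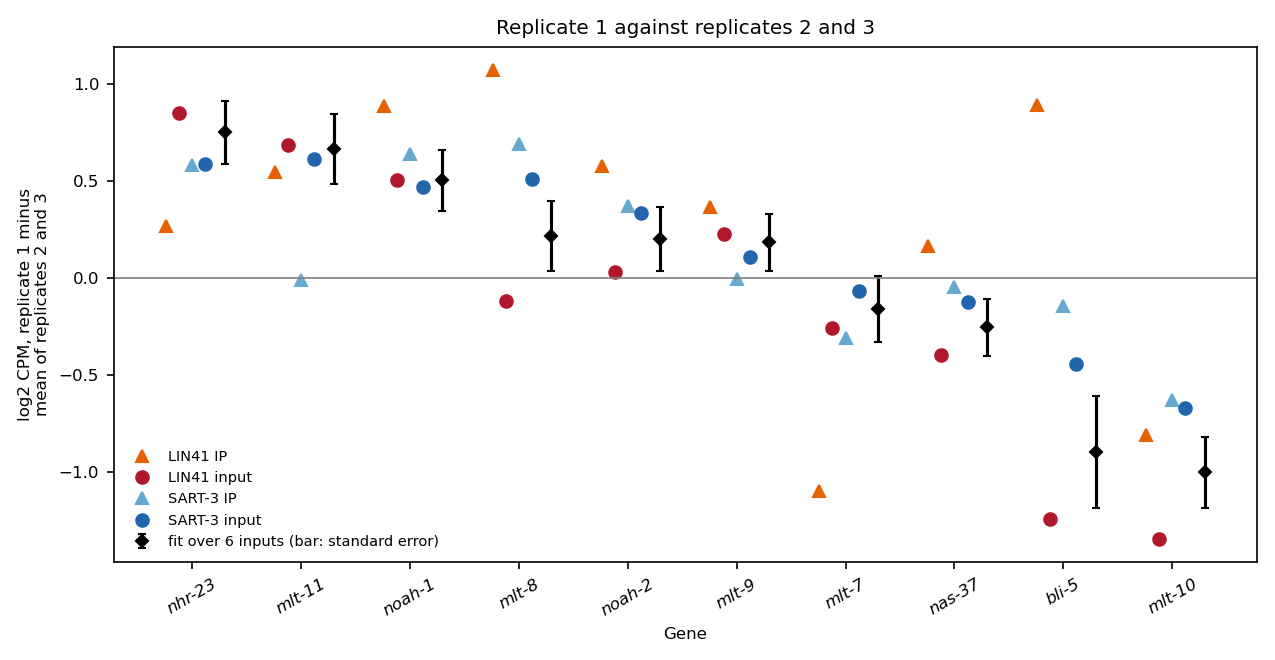
Log2 CPM of replicate 1 minus the mean of replicates 2 and 3 within each of the 4 groups (points), with the log2 difference fitted over the 6 inputs and its standard error, for genes ordered by the fitted value. nhr-23, at 0.75, is at the high end and mlt-10, at -1.004, at the low end, and bli-5 scatters across 0.

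Gene length moved with the replicate number too. In replicate 1 inputs the median log2 difference was -0.36 for genes with a coding length of at most 1000 bp, 0.09 above 1000 and up to 2000 bp, 0.34 above 2000 and up to 3000 bp and 0.57 above 3000 bp. The lengths of the 5 members called were 1780 bp for nhr-23, 6528 bp for mlt-11 and 3222 bp for noah-1, which were higher, and 2073 bp for mlt-10 and 609 bp for bli-5, which were lower. mlt-10 therefore differed in the direction opposite to the median of its length class. When the trend with length was entered as an offset, a setting added after the data were seen, nhr-23 stayed higher at 0.49 (SE 0.142, adjusted p = 0.0155) and mlt-10 lower at -1.32 (SE 0.227, adjusted p = 5.14e-04). mlt-11 then stood at -0.02 (SE 0.293, adjusted p = 0.972), noah-1 at 0.03 (SE 0.216, adjusted p = 0.936) and bli-5 at -0.63 (SE 0.270, adjusted p = 0.0851). In that fit nas-37 (-0.63, adjusted p = 0.00751) and mlt-7 (-0.50, adjusted p = 0.0486) also passed, so that 1 member was higher and 3 were lower, against 30.8% of all genes called. The same fit left the sperm genes lower in replicate 1, with 9 of 13 tested genes called, and the part of stage or of the germ line in the members' differences was not tested.

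**Figure D4:**
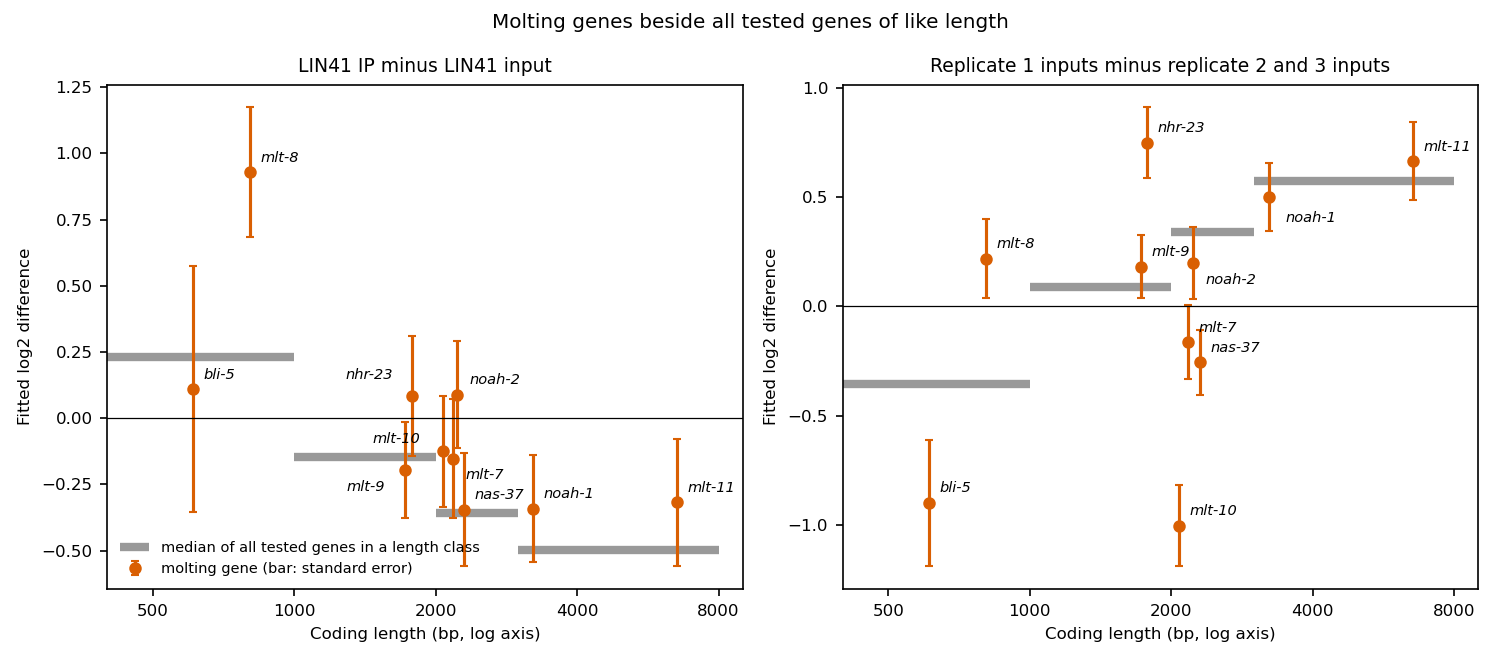
Fitted log2 differences of the 10 genes against their coding length in bp (logarithmic axis), for LIN41 IP minus LIN41 input (left) and for replicate 1 inputs minus replicate 2 and 3 inputs (right); grey bars are medians of all genes in 4 length classes. On the left mlt-8, at 0.93, lies above the median of its class (0.23), and on the right mlt-10, at -1.004, lies below that of its class (0.34).

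Between replicate 3 and replicate 2 inputs no gene passed the quasi-likelihood test of edgeR (0%, with 1131 of 13414 genes at an unadjusted p under 0.05). Other settings called 328 genes (edgeR's likelihood ratio test), 5 (DESeq2), 40 (no filter on low counts) and 79 (length offsets), and no member among them. Among the members 9 of 10 had values below 0, with a median of -0.30 against 0.01 over all genes, and 2 had an unadjusted p under 0.05. The exception was nhr-23, at 0.19 (SE 0.205). mlt-7 had 82.0 CPM in LIN41 input 3, against 173 CPM in LIN41 input 2, and 123 CPM in SART-3 input 3, against 164 CPM in SART-3 input 2. In LIN41 IPs the values were 83.4 CPM in replicate 3 and 173 CPM in replicate 2, and in SART-3 IPs 102 and 148 CPM. Its fitted difference, the largest among the members, was -0.70 (SE 0.200, adjusted p = 0.307), and that of noah-1 was -0.45 (SE 0.188, adjusted p = 0.545).

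In 5 of 10 members, namely mlt-7, mlt-9, nas-37, noah-1 and noah-2, replicate 3 was below replicate 2 in all 4 groups, an order found in 13.1% of all genes. Fits without LIN41 input 1 or SART-3 input 1 called 5 and 6 members lower in replicate 3. Their spread was estimated within the inputs of replicates 2 and 3 alone. Of all genes these fits called 1184 of 13795 (293 of them lower) and 1302 of 14031 (530 of them lower). mlt-7, mlt-8, mlt-9, noah-1 and noah-2 passed in both, and mlt-11 in the second. A fit of all 12 libraries, in which IP and input of a lysate counted separately, called mlt-7 alone, at -0.75 (adjusted p = 0.0178, edgeR). That fit called 461 of 11607 genes (38 of them lower).

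Other genes of molting and cuticle were read from lists that overlap the members in function but not in identity. Of 20 further genes needed for molting, 9 were higher and 0 lower in replicate 1 inputs (median 0.48), against 16.2% higher and 14.8% lower of all genes. The largest differences were in lrp-1, a megalin-like endocytic receptor (1.21, SE 0.188, adjusted p = 0.00544), qua-1, a hedgehog-related gene (0.94, SE 0.158, adjusted p = 0.00658), fbn-1, a fibrillin-like matrix protein (0.86, SE 0.207, adjusted p = 0.0185), and bed-3, a zinc finger factor (0.79, SE 0.200, adjusted p = 0.0215). With the length offsets only bed-3 stayed called (0.53, adjusted p = 0.0162), and lrp-1 (0.37, adjusted p = 0.326) and qua-1 (0.43, adjusted p = 0.104) did not.

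Of 7 apical matrix genes tested, 3 were higher in replicate 1 and 0 lower (median 0.23, against 16.2% of all genes higher): dex-1 (1.51, SE 0.309, adjusted p = 0.0113), fbn-1 and egg-6 (0.59, adjusted p = 0.0311). Of 8 cuticle enzyme genes, 3 were higher and 0 lower (median 0.55, against the same 16.2%). These were the tetraspanin gene tsp-15 (2.05, SE 0.329, adjusted p = 0.00582), the dual oxidase gene bli-3 (1.09, SE 0.186, adjusted p = 0.00689), whose product works with that tetraspanin in tyrosine cross-linking, and the prolyl hydroxylase gene phy-2 (0.71, SE 0.163, adjusted p = 0.0161). With the length offsets dex-1 (1.02, adjusted p = 0.00339), tsp-15 (2.24, adjusted p = 4.67e-05) and bli-3 (0.51, adjusted p = 0.0166) stayed called. The 6 furrow collagen genes, which share one phase of the molting cycle, held no call (median -0.29), the largest values being -0.41 for dpy-10 (adjusted p = 0.0908) and -0.36 for dpy-2 (adjusted p = 0.164). No gene of these lists was called between replicates 3 and 2, with medians of -0.15 for further molting genes, -0.05 for apical matrix genes, -0.22 for furrow collagens and -0.16 for cuticle enzymes.

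In the same replicate 1 comparison, 8 of 13 sperm genes tested were lower (median -1.06), against 14.8% of all genes, among them spe-10 (-1.81), gsp-3 (-1.64) and gsp-4 (-1.56), and 0 were higher. Of 10 tissue markers, 3 were higher and 0 lower (median 0.47, against 16.2% of all genes higher): the neuronal genes unc-13 (0.94) and egl-3 (0.68) and the pharyngeal myosin gene myo-2 (0.82). These calls were lost with the length offsets, where 0 markers were higher and 1 was lower, against 30.8% of all genes called. The marker called lower was the intestinal esterase gene ges-1 (-0.50, adjusted p = 0.0219), and the median of the markers was 0.03. Sperm genes had a median of 1.00 and tissue markers of -0.14 between replicates 3 and 2. Their part in the members' differences was not tested.

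The list genes, like the members, held no call in the LIN41-specific comparison. Between IP and input, 5 of the 20 further molting genes were lower with LIN41 (median -0.43) and 6 with SART-3 (median -0.39), and 0 were higher, against 5.33% and 7.79% of all genes lower. myrf-1, a membrane-bound transcription factor gene, had -1.48 with LIN41 (adjusted p = 0.0177) and -1.63 with SART-3 (adjusted p = 0.00442). qua-1 (-1.39), fbn-1 (-1.28) and blmp-1 (-1.25) completed the largest with LIN41, and blmp-1 (-1.22), fbn-1 (-1.09) and pan-1 (-1.09) those with SART-3. With the length offsets, 1 gene was higher and 2 were lower with LIN41, and 2 were higher and 2 lower with SART-3. Of all genes, 14.1% and 17.1% were called in these fits. The furrow collagen dpy-8 was higher in both IPs (0.86, adjusted p = 0.0444, and 0.85, adjusted p = 0.0365), with list medians of 0.62 and 0.59. Of the apical matrix genes fbn-1 and egg-6 were lower in both, egg-6 at -1.002 with LIN41 and -0.85 with SART-3, and no cuticle enzyme was called. The largest values of cuticle enzymes were -0.89 for doxa-1 and -0.88 for tsp-15 with LIN41 and -0.98 for tsp-15 and -0.83 for doxa-1 with SART-3. No apical matrix gene was called with the length offsets in either comparison, egg-6 standing at -0.54 (adjusted p = 0.163) and -0.39 (adjusted p = 0.220), and 2 cuticle enzymes, phy-2 (0.91 and 0.79) and pdi-2 (1.13 and 1.04), were higher in both.

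Among tissue markers ges-1 (-0.99) and unc-13 (-0.84) were lower in LIN41 IPs than in their inputs. In SART-3 IPs rab-3 (-1.01), unc-13 (-0.81), egl-3 (-0.68) and ges-1 (-0.67) were lower, and 0 markers were higher with either protein. This changed with the length offsets, where 3 markers were higher and 1 lower with LIN41 and 4 were higher and 1 lower with SART-3. Of all genes, 14.1% and 17.1% were called there. In these fits unc-13 stood at -0.26 (adjusted p = 0.465) and -0.19 (adjusted p = 0.540). The sperm gene gsp-3 was higher in SART-3 IPs (0.82, adjusted p = 0.0460). No sperm gene was called with LIN41, where the largest values were -1.01 for spe-11 (adjusted p = 0.0812) and 0.70 for gsp-3 (adjusted p = 0.0816). In the offset fit 2 of 10 sperm genes tested were higher in the IPs of each protein, beside the same 14.1% and 17.1% of all genes called. LIN41 inputs held more of the sperm mRNAs spe-11 (1.201, adjusted p = 0.0421) and gsp-4 (0.95, adjusted p = 0.0255) than SART-3 inputs, and no gene of the other lists was called there or between the IPs.

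The genes whose pattern over the 12 libraries was most like that of nhr-23 were found from the root mean square difference of their log2 deviations from the group means. They were F08F3.1 (0.0813), nhr-232 (0.0860), another nuclear hormone receptor gene, crh-2 (0.0938), a CREB-related gene, efk-1 (0.105), the elongation factor 2 kinase gene, and hlb-1 (0.109). The median over all genes was 0.468. A gene that stayed at its group means would lie at 0.301, the root mean square deviation of nhr-23 itself. Among the members mlt-11 came closest, at 0.203 and rank 285, followed by noah-1 at 0.251 (rank 828) and noah-2 at 0.265 (rank 1040). bli-5 (0.705) and mlt-10 (0.718) were farther from nhr-23 than the median gene, as was mlt-7 (0.606). These distances share libraries and depth among all genes and are given as a description.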

How the data were processed

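RNA from 12 libraries of C. elegans (LIN41 IP, LIN41 input, SART-3 IP and SART-3 input, 3 each) was measured. The deposited values are raw counts per gene: per the methods of the study, the authors collapsed reads with the same 5′ end, aligned them with QuasR and counted overlaps with annotated exons. The methods name the build ce6 and the labels ce10 (with SAMtools), so coordinates are not given here. Collapsing limits the count of short abundant mRNAs, and the highest density among the members was 0.522 counts per bp (mlt-8, LIN41 input 1). Of the identifiers, 93.0% matched symbols of the WBcel235 annotation. Gene lengths in the table are coding lengths (96.6% multiples of 3).

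All genes were tested with edgeR 4.0.16 in R 4.3.3 (TMM, filterByExpr, quasi-likelihood test, two-sided, Benjamini-Hochberg adjusted p under 0.05). The 5 comparisons of proteins and library types used all 12 libraries with replicate number as a block, since the study's model held a batch term. The 2 comparisons of replicate numbers used the 6 inputs with strain as a covariate, and p-values there rest on 2 cultures per number. Where an input was left out, its number kept 1 culture, and fits of 1 strain held 1 culture per number. Fits of all 12 libraries or of 1 strain counted IP and input of a lysate separately. CPM are TMM-normalized, and log2 CPM used a prior count of 2. IP and input of one number share a lysate. Deviations from the group mean were correlated across genes between same-numbered libraries of different groups. The correlation was above 0.1 in 17 of 18 pairs (r = -0.01 to 0.71), and in the 3 pairs of inputs. Pairs of different numbers were not compared and replicate 1 stood apart in every group. These values therefore cannot show whether same-numbered cultures belong together. The study describes the replicates as independent experiments, which the labels do not state.

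The 10 genes and the 6 further lists (further molting genes, apical matrix genes, furrow collagens, cuticle enzymes, sperm genes, tissue markers) were chosen with earlier results of these data known. All 10 members were named in every comparison, with up to 4 called genes of each list by size of difference (or the 2 largest where none was called, given here for replicate 1 and for IP against input), the 5 genes nearest to nhr-23 and genes whose exons overlap a member. A result that this rule would name is not reported here. Alternatives were DESeq2 1.42.0, limma-voom (limma 3.58.1), the likelihood ratio test, other scaling and filters, no replicate block, other sets of libraries and leaving out libraries. Length offsets (loess, span 0.3), correction for the ceiling of collapsed reads and thinning to equal totals were added after seeing the data. The fits were tested on simulated data.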

Additional observations from a re-analysis of the deposited data

How the results depend on the processing

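Over 70 results of single members in 7 comparisons, 43 of 1690 values under other settings lost a call and 33 gained one. A further 2 values, both of members called in the replicate 1 comparison, changed sign, mlt-11 to -0.015 with length offsets and bli-5 to 0.24 in the IP libraries. The other 1612 stayed on their side of the threshold, 132 of them with the opposite sign and called in neither fit. Length offsets alone turned the sign of 7 members between LIN41 IP and input and of 6 between SART-3 IP and input. The counts of members called that follow are set against those reported, and no cause was tested. For LIN41 IP against input (1 called, among 1708 of 12036 genes), scaling by total counts gave 5 (2934 of 12036 genes). A minimum of 10 counts in every library gave 3 (1420 of 5255) and no replicate block 0 (611 of 12036). When libraries were left out, 0 to 2 members were called, among 168 to 2149 genes (each of 12027). For SART-3 IP against input (1 called, among 2200 of 12036 genes), total counts gave 3 (3032 of 12036) and the minimum of 10 counts 3 (1607 of 5255). The ceiling correction (1924 of 12038), thinning (1483 of 9067) and no replicate block (684 of 12036) gave 0 each. When libraries were left out, 0 to 1 members were called, among 44 of 12027 to 3768 of 11827 genes. For LIN41 input against SART-3 input (0 called, among 170 of 12036 genes), leaving out libraries gave 0 to 1, among 3 of 12027 to 2863 of 11940 genes. For replicate 1 against replicates 2 and 3 (5 called, among 4154 of 13414 genes), DESeq2 gave 2 (1490 of 13414), thinning 3 (3170 of 12516) and the IP libraries 3 (1165 of 9142). Leaving out an input of replicate 2 or 3 gave 1 to 3, among 1632 of 14060 to 3923 of 13955 genes. Fits with 1 culture of replicate 1 are not counted here. For replicate 3 against 2 (0 called, among 0 of 13414 genes), all 12 libraries gave 1 (461 of 11607 genes). Leaving out LIN41 input 1 or SART-3 input 1 gave 5 and 6 (1184 of 13795 and 1302 of 14031 genes). The LIN41-specific and IP against IP comparisons held 0 members in every setting. Removing the replicate block changed no other member's call. Depth limits bli-5 most, with 3 counts in LIN41 IP 2, and IPs were sequenced to less than any input.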
